A study of Mus musculus with 50 samples.

Results

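The genes described here are 40 lysosomal genes of the mouse macrophage line RAW264.7, picked by name. They are MiT/TFE transcription factors, without Tfec, and genes that these factors are known to regulate. They comprise 3 MiT/TFE factors (Tfeb, Tfe3 and Mitf), 5 lysosomal membrane proteins, 8 cathepsins with their protective protein, 7 glycosidases, 5 lipid-handling or secreted lysosomal proteins, and 12 subunits or accessory proteins of the vacuolar proton pump (V-ATPase). All 40 were found among the 55416 genes of the deposited tables, and all 40 were among the 18315 genes that passed the filter on low counts. Ctsh passed that filter with at most 23 counts in any library, so it is given no fold change.

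RNA was sequenced from RAW264.7 cells that carried CRISPR guide RNAs against SGK1, SGK3 or both kinases, or an empty-vector guide construct (control cells). Cells were left at rest or stimulated for 2 h with DMXAA at 10 µg/mL, which activates mouse STING. A further set of control cells was pretreated for 2 h with 500 nM of the SGK inhibitor Sanofi-14h and then stimulated. The labels mention DMSO as the vehicle of this pretreatment, without naming the libraries that received it, and they do not say whether a knockout line was a clone or a pool. Batch b1, as the labels name it, had resting libraries of control cells and of the SGK3 knockout (n = 3 each). Its stimulated libraries were of control cells, control cells pretreated with Sanofi-14h, the SGK3 knockout and the SGK1 and SGK3 double knockout (n = 5 each). Batch b2 had 3 resting libraries each of control cells, the SGK1 knockout and the double knockout, and 4, 4 and 3 stimulated ones. Batch b3 held 4 libraries marked as reruns: SGK1 knockout with DMXAA (n = 1), double knockout with DMXAA (n = 2) and 1 control library whose labels disagree on the treatment and which enters no group.

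TFEB, TFE3 and MITF are basic helix-loop-helix factors that bind E-box-like sequences, among them the CLEAR element found near the start of many lysosomal genes. When mTORC1 is active on the lysosomal surface these factors are phosphorylated and held in the cytoplasm by 14-3-3 proteins. The folliculin complex (FLCN with FNIP1 or FNIP2) acts on the RagC and RagD GTPases that bring the factors to mTORC1. When this control is released the factors enter the nucleus and raise hydrolases, membrane proteins and the V-ATPase, whose V1 sector splits ATP and whose V0 sector carries protons into the lysosome. Control of these factors is mainly by location in the cell, which a transcript level does not measure. SGK kinases belong to the AGC family, as AKT does.

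The sequences at the start of these genes were searched for motifs of the factors. The members were picked as known targets of the factors, so the shares below are a description and not a test. RefSeq promoter windows on GRCm38.p6, from 250 bases before to 50 bases after the start, were at hand for 34 of the 40 members and for 27025 genes in all. The 8-base core of the CLEAR element, TCACGTGA, stood on either strand in 6 members (17.6%) and in 1.125% of all genes. The E-box CACGTG, which the core contains, stood in 12 members (35.3%) and in 8.093% of all genes. The M-box TCATGTG stood in 5 members (14.7%) and in 4.311% of all genes. The full palindromic CLEAR element, which is the core with a G before it and a C after it, stood in 0 members and in 0.37% of all genes. Of the 6 windows with a core, the 4 below belong to members whose values are given further on, with the core in capitals. The windows of Ctsa and Atp6v0d1 hold a core too.
Gla, X:134600956-134601255, minus strand: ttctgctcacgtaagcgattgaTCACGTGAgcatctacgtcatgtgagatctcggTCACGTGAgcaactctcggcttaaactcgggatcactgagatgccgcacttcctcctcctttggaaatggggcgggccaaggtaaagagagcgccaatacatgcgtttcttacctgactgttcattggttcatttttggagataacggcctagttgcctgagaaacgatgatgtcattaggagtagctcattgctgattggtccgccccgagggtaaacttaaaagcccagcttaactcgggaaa
Atp6v1a, 16:44139210-44139509, minus strand: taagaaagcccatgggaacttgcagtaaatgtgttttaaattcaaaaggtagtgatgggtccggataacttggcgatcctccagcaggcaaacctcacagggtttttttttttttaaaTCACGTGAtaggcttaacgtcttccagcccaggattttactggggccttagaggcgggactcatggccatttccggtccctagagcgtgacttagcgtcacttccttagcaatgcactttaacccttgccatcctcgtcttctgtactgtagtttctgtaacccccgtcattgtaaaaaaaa
Ctsd, 7:142387778-142388077, minus strand: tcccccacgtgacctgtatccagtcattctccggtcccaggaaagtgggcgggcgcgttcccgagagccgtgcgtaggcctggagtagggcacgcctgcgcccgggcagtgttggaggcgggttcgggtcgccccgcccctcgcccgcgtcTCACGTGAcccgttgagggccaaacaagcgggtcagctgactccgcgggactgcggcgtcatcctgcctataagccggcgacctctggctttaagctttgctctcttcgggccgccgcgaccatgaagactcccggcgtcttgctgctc
Mcoln1, 8:3500269-3500568, plus strand: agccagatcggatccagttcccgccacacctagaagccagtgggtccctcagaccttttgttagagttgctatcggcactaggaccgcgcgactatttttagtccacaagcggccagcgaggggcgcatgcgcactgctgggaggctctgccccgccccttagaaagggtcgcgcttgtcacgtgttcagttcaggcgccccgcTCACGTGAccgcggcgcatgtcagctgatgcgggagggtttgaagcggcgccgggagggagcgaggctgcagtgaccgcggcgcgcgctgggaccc
In the Gla window the core stood at 2 places, beginning 228 and 195 bases before the start. It began 132 bases before the start in Atp6v1a, 99 in Ctsd and 46 in Mcoln1. The windows of Ctsc, Gpnmb, Neu1, Tfeb, Tfe3 and Mitf held neither the core nor the E-box. A match describes these letters and is not evidence of binding.

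A library held between 57859509 and 101068327 counts in b1, between 63461414 and 112007140 in b2 and between 76295599 and 86754670 in b3. With DMXAA, Sgk1 stood at 45.6 to 54.1 CPM (counts scaled to library size) in b1 control libraries and at 3.02 to 5.86 in the double knockout. In b2 the ranges were 25.4 to 39.4 CPM in control cells, 1.82 to 6.79 in the SGK1 knockout and 1.74 to 3.09 in the double knockout. With DMXAA in b1, Sgk1 also stood below the control libraries in the SGK3 knockout (18.9 to 24.1 CPM) and with the inhibitor (8.98 to 13.5 CPM). Gene counts did not show the SGK3 edit: Sgk3 stood at 96.2 to 107 CPM in b1 control cells with DMXAA, at 97.7 to 109 in the SGK3 knockout and at 117 to 120 in the double knockout. In 4 libraries of b2 (SGK1 knockout at rest replicates 2 and 3, SGK1 knockout with DMXAA replicate 2, double knockout with DMXAA replicate 3), called length-trend libraries below, CPM increased with gene length, beyond the mean of the batch, by more than 0.1 log2 units per doubling. In 4 others of b2 (control at rest replicate 2, control with DMXAA replicates 2 and 4, double knockout with DMXAA replicate 1) it decreased by more than 0.1 on the same measure, and these stay in the fits without the length-trend libraries. The labels do not say whether replicates came from separate cultures, so a p-value here reflects the spread of these libraries alone, and that spread may be technical. All 9 macrophage markers (such as Adgre1, Csf1r and Ptprc) were present in every group. Their summed level in b2 was 11223 to 13582 CPM in control cells, 8333 to 10159 in the SGK1 knockout and 7508 to 10019 in the double knockout, a gap in which fewer cells of a type and less RNA per cell cannot be told apart. In b1 with DMXAA the sums overlapped, at 7671 to 8473 CPM in control cells and 6916 to 8801 in the double knockout. The b3 reruns stood at 10109 to 11502 CPM in the double knockout and 11295 in the SGK1 knockout. The part of the b2 marker gap in the b2 results below was not tested. The 15 markers of other cell types summed to at most 0.892 CPM in b1 and 26.6 CPM in b2, where Alb made up most of it.

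The members' levels relative to one another were read from the deposited TPM values, which divide by transcript length. In b1 control cells at rest the highest member was Ctsz, the gene of cathepsin Z, at 915 ± 34.4 TPM (SD, n = 3). Lamp1, which encodes an abundant glycoprotein of the lysosomal membrane, followed at 808 ± 7.53. Ctsb, Ctss and Ctsd, which encode the proteases cathepsin B, S and D, lay at 737 ± 15.4, 717 ± 11.5 and 704 ± 24.6 TPM, with overlapping neighbours. Tfe3 was the most abundant of the factors at 47.6 ± 0.611 TPM, above Tfeb at 21.7 ± 1.67 and Mitf at 19.7 ± 0.214. The lowest members were Gpnmb at 0.995 ± 0.302 TPM and Ctsh at 0.0250 ± 0.0217. In b2 control cells at rest Ctsd (763 ± 26.3 TPM), Lamp1 (743 ± 45.5) and Ctsz (725 ± 14.5) led, with overlapping libraries. All 40 members together took 0.958% to 0.995% of TPM in b1 control cells at rest and 0.806% to 0.822% in b2.

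Transcripts of the 3 factors moved by different amounts with DMXAA. Tfeb (GRCm39 chromosome 17, 48047955 to 48103344) stood at 22.9, 27.0 and 23.8 CPM in b1 control cells at rest and at 18.4, 15.9, 15.8, 14.5 and 16.0 with DMXAA. Every stimulated library lay below every resting one, and Tfeb fell by 0.61 ± 0.14 on the log2 scale (SE, adjusted p = 0.000754; edgeR quasi-likelihood test, as for every adjusted p below unless another tool is named). In the SGK3 knockout it stood at 33.3, 31.7 and 29.7 CPM at rest and 19.9, 21.0, 21.2, 17.7 and 21.5 with DMXAA, again without overlap (-0.64 ± 0.14 SE, adjusted p = 0.000534). In b2 control cells the values were 30.3, 33.2 and 27.5 CPM at rest and 23.3, 27.7, 22.1 and 18.6 with DMXAA, and the groups overlapped (log2 fold change -0.40 ± 0.15 SE, adjusted p = 0.0859). The SGK1 knockout of b2 had 31.1, 27.0 and 18.7 CPM at rest and 21.7, 13.3, 21.0 and 15.7 with DMXAA, with overlap (-0.51 ± 0.15 SE, adjusted p = 0.0081). The double knockout of b2 had 33.3, 28.4 and 36.6 CPM at rest and 28.2, 21.3 and 19.8 with DMXAA, and these groups lay apart (-0.50 ± 0.16 SE, adjusted p = 0.0236). Tfeb thus fell in 4 of the 5 DMXAA comparisons. The calls of the SGK1 and double knockouts ended in a fit of the compared groups alone. That of the SGK1 knockout also ended without its rest replicate 1, and that of the double knockout when any of 4 of its 6 libraries was left out. Between lines Tfeb passed in 1 of 7 knockout comparisons: in b1 with DMXAA it stood at 23.1, 22.3, 19.8, 20.5 and 17.0 CPM in the double knockout, above the mean of control cells but with overlap (0.35 ± 0.12 SE, adjusted p = 0.0464). That call ended under RLE scaling, without a filter, with the replicate block, and when any of 8 of the 10 libraries was left out.

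Tfe3 (GRCm39 chromosome X, 7628799 to 7641441), the most abundant factor, moved little. Its b1 control libraries lay at 87.0, 84.0 and 83.4 CPM at rest and 76.2, 82.3, 70.3, 62.2 and 64.1 with DMXAA, all lower when stimulated (-0.26 ± 0.07 SE, adjusted p = 0.00548). In b2 they lay at 96.3, 97.3 and 106 CPM at rest and 102, 101, 95.6 and 98.1 with DMXAA, with overlap (-0.01 ± 0.07 SE, adjusted p = 0.996). The other b1 groups stood at 89.6, 91.2 and 84.1 CPM in the SGK3 knockout at rest, 78.2, 69.8, 75.3, 84.3 and 81.8 with DMXAA, and 81.8, 79.7, 77.7, 87.7 and 87.5 in the double knockout with DMXAA. In b2 the SGK1 knockout stood at 112, 118 and 96.4 CPM at rest and 100.3, 106, 101 and 101 with DMXAA, and the double knockout at 102, 97.9 and 96.8 CPM at rest and 97.5, 106 and 110.5 with DMXAA. Against control cells with DMXAA, Tfe3 was higher in the double knockout of b1 (0.22 ± 0.06 SE, adjusted p = 0.0086), with overlapping libraries. That call ended with limma on TPM and without control DMXAA replicate 4. The other 6 knockout comparisons gave Tfe3 log2 differences of -0.01 to 0.13 that did not pass.

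Mitf (GRCm39 chromosome 6, 97784013 to 97998310), whose product is best known from melanocytes and osteoclasts, was higher in 5 of 7 knockout comparisons and rose in 3 of 5 DMXAA comparisons. In b1 control cells it stood at 48.6, 48.8 and 49.9 CPM at rest and 63.4, 73.4, 65.3, 64.9 and 64.9 with DMXAA, without overlap (0.43 ± 0.11 SE, adjusted p = 0.00291). That call ended with limma on TPM. In b2 control cells it stood at 43.9, 38.4 and 57.5 CPM at rest and 54.4, 49.2, 64.7 and 49.2 with DMXAA, with overlap (0.22 ± 0.12 SE, adjusted p = 0.304). The SGK3 knockout had 63.1, 69.6 and 63.1 CPM at rest and 72.6, 70.1, 75.1, 73.1 and 67.8 with DMXAA, and the b1 double knockout 76.9, 72.2, 70.3, 71.3 and 73.5 with DMXAA. In b2 the SGK1 knockout had 49.5, 65.1 and 72.5 CPM at rest and 73.9, 108, 74.8 and 93.9 with DMXAA, every stimulated library being above every stimulated control (0.69 ± 0.11 SE, adjusted p = 3.98e-06). The double knockout of b2 had 65.0, 68.6 and 62.7 CPM at rest and 82.7, 99.6 and 112 with DMXAA, also above the controls in every library (0.85 ± 0.11 SE, adjusted p = 1.34e-07). At rest Mitf was higher than in control cells in the SGK3 knockout (0.41 ± 0.12 SE, adjusted p = 0.0414), the SGK1 knockout (0.42 ± 0.12 SE, adjusted p = 0.0103) and the double knockout (0.49 ± 0.12 SE, adjusted p = 0.00807). With DMXAA it rose by 0.49 ± 0.12 in the SGK1 knockout and 0.59 ± 0.12 in the double knockout of b2 (adjusted p = 0.0016 and 0.000582). The 3 resting calls each ended in at least 3 alternatives, and that of the SGK3 knockout ended whichever of its 6 libraries was left out. In the DMXAA comparisons of b1 Mitf did not pass (0.11 ± 0.10 in the SGK3 and 0.13 ± 0.10 in the double knockout).

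Mcoln1 (GRCm39 chromosome 8, 3550457 to 3565232), a known TFEB target, encodes the lysosomal calcium channel that activates calcineurin, the phosphatase acting on TFEB. It was at 43.2, 36.0 and 41.2 CPM in b1 control cells at rest and 38.1, 39.1, 40.4, 40.4 and 41.5 with DMXAA, and at 27.6, 25.7 and 26.1 CPM at rest and 25.6, 28.2, 24.2 and 31.5 with DMXAA in b2. The groups overlapped in both batches (log2 fold changes -0.01 ± 0.09 and 0.05 ± 0.09, adjusted p = 0.99 and 0.894). With DMXAA the b1 knockouts had 40.6, 44.8, 38.3, 44.9 and 44.6 CPM (SGK3) and 43.2, 38.3, 39.0, 42.1 and 36.9 (double), and the SGK3 knockout at rest had 40.7, 39.8 and 41.9. The b2 values were 25.0, 27.3 and 24.2 CPM in the SGK1 knockout at rest and 32.3, 25.2, 30.2 and 33.1 with DMXAA, and 28.1, 25.6 and 27.6 CPM at rest and 35.2, 36.8 and 26.2 with DMXAA in the double knockout. Mcoln1 passed only in the double knockout of b2 with DMXAA among the 13 comparisons of groups (0.26 ± 0.09 SE, adjusted p = 0.0423), with overlapping libraries. The call ended in 3 of 9 alternatives and in 5 of 7 fits that left out 1 library.

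**Figure D1:**
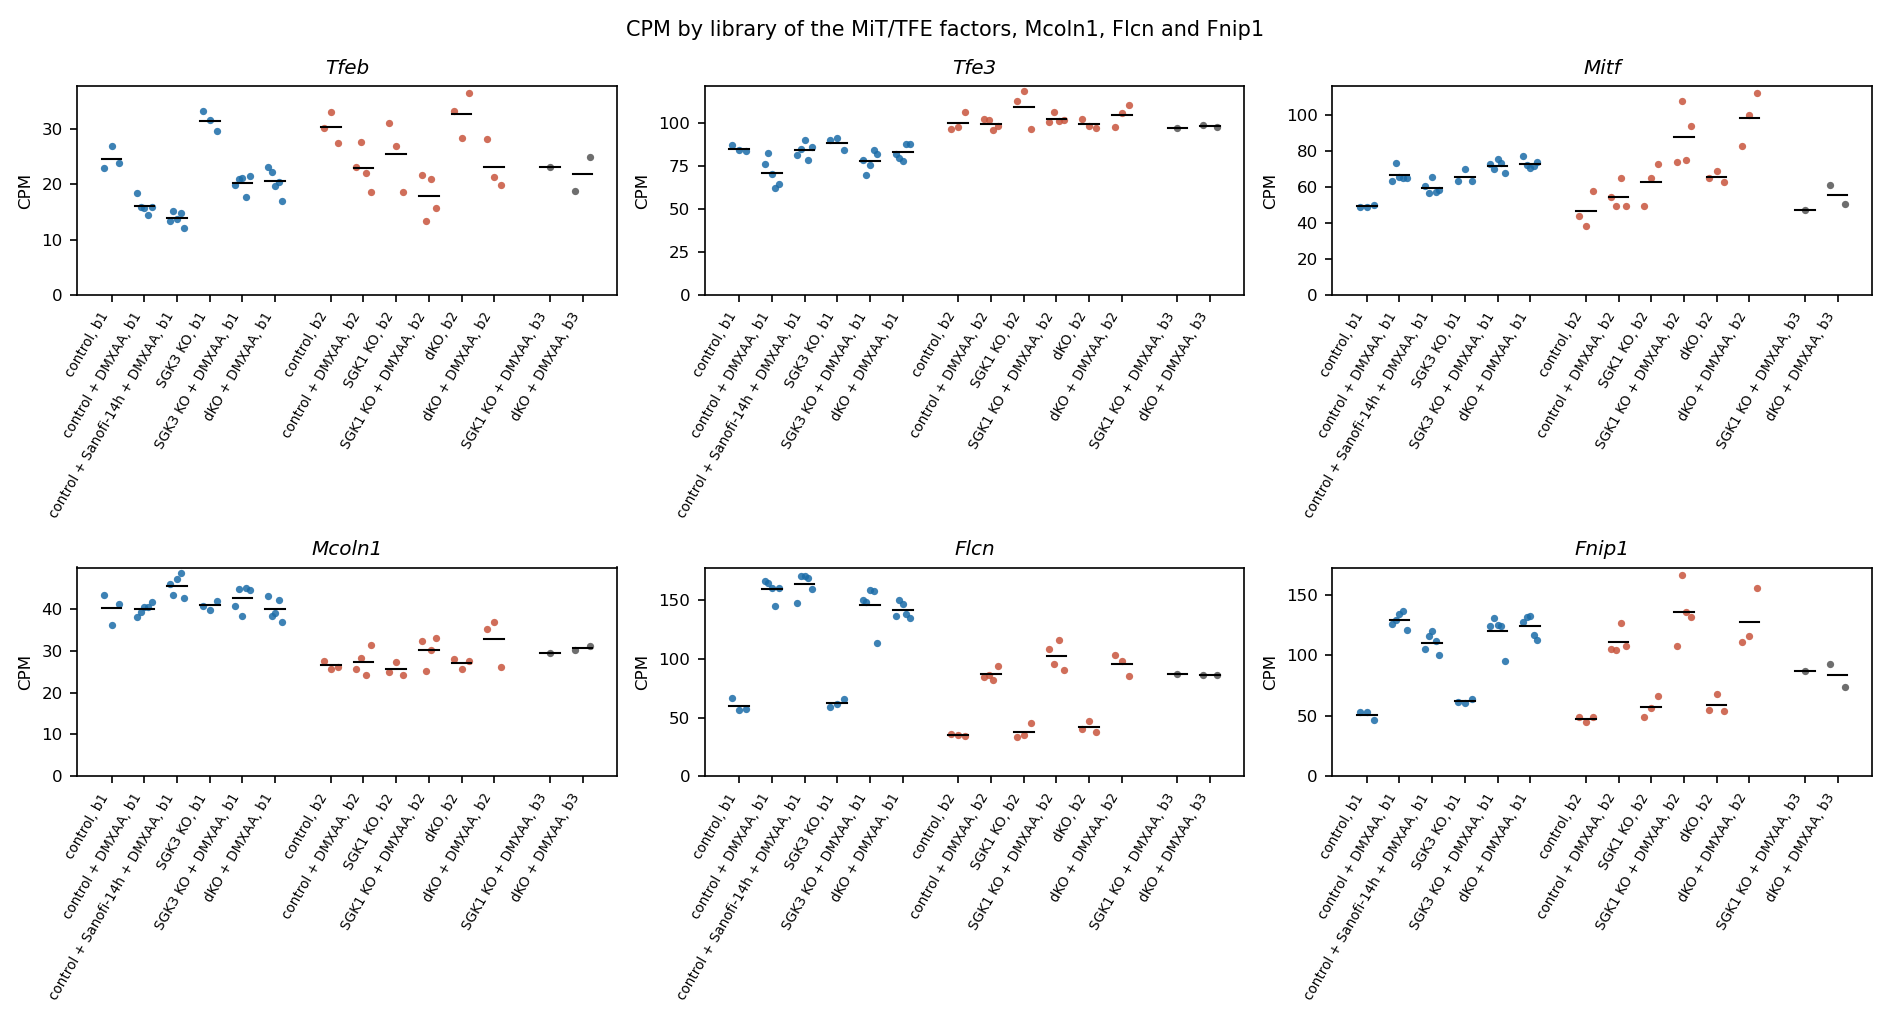
CPM (vertical axes, from 0) of Tfeb, Tfe3, Mitf, Mcoln1, Flcn and Fnip1 in each library (points) with group means (lines), for the groups of b1 (blue), b2 (red) and b3 (grey). Flcn and Fnip1 lie higher in every stimulated library than in any resting library of the same line and batch, while Tfeb lies lower with DMXAA in b1 control cells and Mcoln1 stays between 24.2 and 48.6 CPM in b1 and b2.

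Among 22 genes of the mTORC1 and folliculin control of the factors, the folliculin complex rose with DMXAA in every line. Flcn (GRCm39 chromosome 11, 59682234 to 59700842) was at 66.4, 56.3 and 57.4 CPM in b1 control cells at rest and 166, 165, 160.5, 145 and 159.9 with DMXAA, and at 36.4, 34.9 and 34.0 CPM at rest and 84.1, 86.7, 82.3 and 93.9 with DMXAA in b2. The stimulated libraries lay above the resting ones in both batches (1.41 ± 0.10 SE, adjusted p = 1.53e-15 in b1, 1.30 ± 0.10 SE, adjusted p = 1.45e-13 in b2). Fnip1 was at 53.3, 53.1 and 46.9 CPM at rest and 126, 129, 134, 136 and 121 with DMXAA in b1 control cells (1.34 ± 0.11 SE, adjusted p = 7e-13), and at 48.9, 44.7 and 48.7 CPM at rest and 105, 104, 127 and 108 with DMXAA in b2 (1.23 ± 0.12 SE, adjusted p = 6.19e-11). The log2 responses of Flcn were 1.22, 1.44 and 1.20 in the SGK3, SGK1 and double knockouts, and those of Fnip1 were 0.95, 1.24 and 1.11, with adjusted p from 5.06e-15 to 7.55e-09. Of the 22 genes, 5 rose and 0 fell in b1 control cells (22.7%, near the 21.1% of all genes called), and 4 rose and 0 fell in b2 (18.2%, against 7.8%). The counts were 3 and 0 in the SGK3 knockout (13.6%, against 16.5%), 6 and 3 in the SGK1 knockout (40.9%, against 24.1%) and 5 and 0 in the double knockout (22.7%, against 14%). Fnip2, the alternative partner of folliculin, was higher than in control cells in the SGK3 knockout (0.67 ± 0.14 at rest, 0.45 ± 0.11 with DMXAA), the SGK1 knockout (0.56 ± 0.14 and 0.79 ± 0.12) and the double knockout with DMXAA (0.43 ± 0.11 in b1, 0.65 ± 0.13 in b2). The adjusted p-values of Fnip2 in these 6 comparisons ran from 6.71e-06 to 0.0048. In the SGK1 knockout at rest Fnip2 stood at 189, 252 and 281 CPM, the higher values being from length-trend libraries. Control cells of b2 at rest stood at 160, 134 and 197. The b3 reruns had 278 and 242 CPM in the double knockout and 248 in the SGK1 knockout. These lay below the b2 control libraries with DMXAA (312 to 403 CPM). Tfec, the MiT/TFE factor left out of the members, differed in the SGK1 knockout. There it stood at 8.79, 6.05 and 7.99 CPM at rest and 9.42, 7.60, 8.83 and 5.92 with DMXAA. Its b3 rerun had 7.45 CPM. Tfec was at most 0.475 CPM in b2 control cells, 1.13 in the b2 double knockout and 0.572 in any b1 library.

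The response of control cells to DMXAA shows how lysosomal genes react to STING stimulation within 2 h. In b1, 8 of the 40 members rose and 3 fell (27.5%, against 21.1% of all genes, 10.8% higher and 10.3% lower), and in b2, 2 rose and 0 fell (5%, against 7.8% of all genes, 4.74% higher and 3.06% lower). These shares lie near the background. The share of all genes, here and elsewhere, was not matched to the members for expression level. The median log2 fold change of the 39 members without Ctsh was 0.09 in b1 and 0.10 in b2, and that of all genes was 0.01 and 0.00. Gla (GRCm39 chromosome X, 133488898 to 133501874), which encodes alpha-galactosidase A, was the member with the largest change. It went from 40.4, 37.2 and 37.5 CPM to 69.1, 69.1, 77.1, 67.9 and 69.7 in b1 and from 24.4, 22.1 and 23.3 to 39.5, 41.0, 42.7 and 39.9 in b2, every stimulated library lying above every resting one (0.88 ± 0.11 SE, adjusted p = 1.89e-08 in b1, 0.81 ± 0.11 SE, adjusted p = 9.51e-07 in b2). Its promoter window holds the CLEAR core at 2 places, as printed above. Atp6v1a, Ctsd, Mcoln1, Ctsa and Atp6v0d1, whose windows hold a core too, were not called in control cells of either batch. A link between motif and response was not tested.

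The other members called in b1 control cells were spread over the roles. Atp6ap2, a V-ATPase accessory protein also known as the prorenin receptor, stood at 159, 147 and 142 CPM at rest and 202, 209, 233, 224 and 221 with DMXAA, without overlap (0.54 ± 0.07 SE, adjusted p = 2.33e-08). Of the 6 V1 subunits, Atp6v1b2 and Atp6v1h rose by 0.40 ± 0.06 and 0.30 ± 0.06 (adjusted p = 3.86e-06 and 0.000313). Of the lipid-handling proteins, Npc2, a cholesterol carrier, rose by 0.47 ± 0.14 and Lipa, the lysosomal acid lipase, by 0.29 ± 0.06 (adjusted p = 0.0131 and 0.000203). Naglu, an enzyme of heparan sulfate breakdown, fell by 0.48 ± 0.08 (adjusted p = 5.3e-06). The calls included no V0 subunit and no cathepsin. Atp6v1b2 was the other call of b2, with 183, 159 and 172 CPM at rest and 196, 198, 210.3 and 199.8 with DMXAA (0.23 ± 0.07 SE, adjusted p = 0.0219), a call that ended with limma on TPM, in the fit of these groups alone, and without control rest replicate 2 or 3 or control DMXAA replicate 3. The calls of Tfeb, Naglu, Tfe3, Gla, Atp6v1b2, Atp6v1h, Atp6ap2 and Lipa in b1, and of Gla in b2, held in every alternative and with any 1 library left out. The count in b1 was 18 in a fit of its groups alone, where 35.9% of all genes passed. That in b2 was 9 with the length trend removed (against 10.7% of all genes) and 4 by DESeq2 (against 10.2%). On TPM, limma called 6 members higher and 8 lower in b1, against 20.8% to 21.6% of all genes. The response differed between b1 and b2 in 2 of 40 members (5%, against 3.21% of all genes, 1.81% higher and 1.4% lower), Atp6v1h (0.37 ± 0.09, adjusted p = 0.0131) and Atp6ap2 (0.33 ± 0.10, adjusted p = 0.047), both larger in b1. The Atp6ap2 difference ended when any of 12 single libraries was left out, and that of Atp6v1h without control rest replicate 3 of b1.

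In the SGK3 knockout DMXAA raised 6 members and lowered 4 (25%, against 16.5% of all genes, 8.58% higher and 7.96% lower; median of 39 members 0.06). Naglu stood at 79.4, 78.5 and 71.4 CPM at rest and 47.5, 49.3, 54.0, 48.9 and 54.1 with DMXAA, all stimulated libraries being lower (-0.59 ± 0.08 SE, adjusted p = 1.14e-07). Gla stood at 52.0, 48.6 and 48.1 CPM at rest and 75.2, 81.7, 79.2, 81.0 and 55.5 with DMXAA, without overlap (0.59 ± 0.11 SE, adjusted p = 5.59e-05). Tfeb, Gla and Naglu were the members with the largest changes in libraries that did not overlap. Among V-ATPase genes, Atp6v0b, Atp6ap2, Atp6v1h and Atp6v1b2 rose by 0.21 to 0.41, and Atp6v0a1, the V0 subunit that anchors the pump, fell by 0.36 ± 0.10. The response differed from that of control cells in 0 of 40 members by edgeR and 0 by DESeq2 (by edgeR 0.191% of all genes, 0.0819% higher and 0.109% lower), and 3 had an unadjusted p below 0.05. The count of 10 calls was 6 without SGK3 knockout rest replicate 1 or replicate 3. It was 20 in a fit of the compared groups alone, where 35.3% of all genes passed. On TPM, limma called 4 members higher and 6 lower, against 15.9% to 16.1% of all genes.

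In b2 most of the lysosomal members rose with DMXAA in the lines edited at SGK1. In the SGK1 knockout 25 of 40 members rose and 1 fell (65%, against 24.1% of all genes, 12.5% higher and 11.6% lower; median of 39 members 0.32, of all genes 0.00). In the double knockout 21 rose and 2 fell (57.5%, against 14% of all genes, 7.44% higher and 6.51% lower; median 0.28, of all genes -0.02). By role, the SGK1 knockout had all 4 V0 subunits, 5 of 6 V1 subunits, 4 of 5 lipid-handling or secreted proteins, 4 of 8 cathepsins and protective protein, 3 of 7 glycosidases and 3 of 5 membrane proteins higher with DMXAA. The double knockout had 1 of 4 V0 subunits, 4 of 6 V1 subunits, 4 of 5 lipid-handling or secreted proteins, 3 of 8 cathepsins, 3 of 7 glycosidases and 4 of 5 membrane proteins higher.

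Gla rose most in the SGK1 knockout, from 18.7, 20.5 and 14.3 CPM to 59.5, 48.2, 56.7 and 61.6 (1.66 ± 0.12 SE, adjusted p = 6.18e-15), a 3.17-fold change without overlap. In the double knockout it stood at 26.8, 25.2 and 28.1 CPM at rest and 62.9, 63.5 and 56.0 with DMXAA (1.19 ± 0.12 SE, adjusted p = 3.41e-10). Grn (GRCm39 chromosome 11, 102321141 to 102327874) encodes progranulin, a secreted glycoprotein that is cut into granulins in the lysosome. It stood at 323, 309.5 and 325 CPM in b2 control cells at rest and 372, 430.1, 384 and 398 with DMXAA, which lay apart but did not pass (0.31 ± 0.11 SE, adjusted p = 0.0855). In the SGK1 knockout Grn went from 269, 262 and 177 CPM to 561, 497, 552 and 380.3 (1.08 ± 0.11 SE, adjusted p = 8.65e-10), and in the double knockout from 273, 271 and 279.6 to 624, 706 and 476 (1.13 ± 0.12 SE, adjusted p = 1.29e-09). Within both lines the stimulated and resting libraries lay apart. Ctsb followed a like course, with 1280.1, 1339 and 1276 CPM in control cells at rest and 1408, 1615, 1417 and 1441 with DMXAA (0.18 ± 0.10, not passing). It was at 1154, 1053 and 835 CPM at rest and 2057, 1715, 1926 and 1558 with DMXAA in the SGK1 knockout (0.84 ± 0.10 SE, adjusted p = 1.24e-08), and at 1126, 1104 and 1167 CPM at rest and 2174, 2155 and 1551 with DMXAA in the double knockout (0.79 ± 0.11 SE, adjusted p = 2.14e-07). SGK1 knockout rest replicate 3, 1 of the length-trend libraries, was the lowest of its group for Gla, Grn and Ctsb.

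Other calls covered the pump and its cargo. Atp6v1a, the catalytic V1 subunit, rose by 0.51 ± 0.06 in the SGK1 knockout and by 0.86 ± 0.06 when both kinases were targeted (adjusted p = 2.02e-09 and 8.82e-15), against 0.10 ± 0.06 in control cells, which did not pass. Atp6v1d, of the central stalk, rose by 0.80 ± 0.10 and 0.64 ± 0.11, and Hexa, a subunit of beta-hexosaminidase, by 0.55 ± 0.07 and 0.47 ± 0.08. Atp6v0c, the proteolipid ring of V0, rose by 0.66 ± 0.13 and 0.50 ± 0.14, with overlapping libraries in both lines. Gpnmb rose by 1.74 ± 0.23 in the double knockout without overlap, and by 0.81 ± 0.22 in the SGK1 knockout with overlap. Tfeb fell in both lines, as given above, and Ctsl fell by 0.45 ± 0.13 in the double knockout, with overlap.

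These counts changed with the fit. In fits of the compared groups alone 9 members passed in the SGK1 knockout and 8 in the double knockout, all higher, against 5.2% and 3.34% of the genes tested in those fits. Without the 4 length-trend libraries 11 passed in the SGK1 knockout (10 higher, 1 lower), with 1 library left at rest that is assumed to vary like the other groups, and 25 in the double knockout (25 higher, 0 lower). On TPM, limma called 16 higher and 4 lower in the SGK1 knockout, against 25.7% to 26.1% of all genes. Calls that held in every alternative and with any 1 library left out were Gla, Grn, Ctsb, Ctsz, Hexa, Atp6v1d and Atp6v1c1 in the SGK1 knockout and Gpnmb, Gla, Grn, Ctsb, Hexa, Atp6v1a and Atp6v1d in the double knockout.

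**Figure D2:**
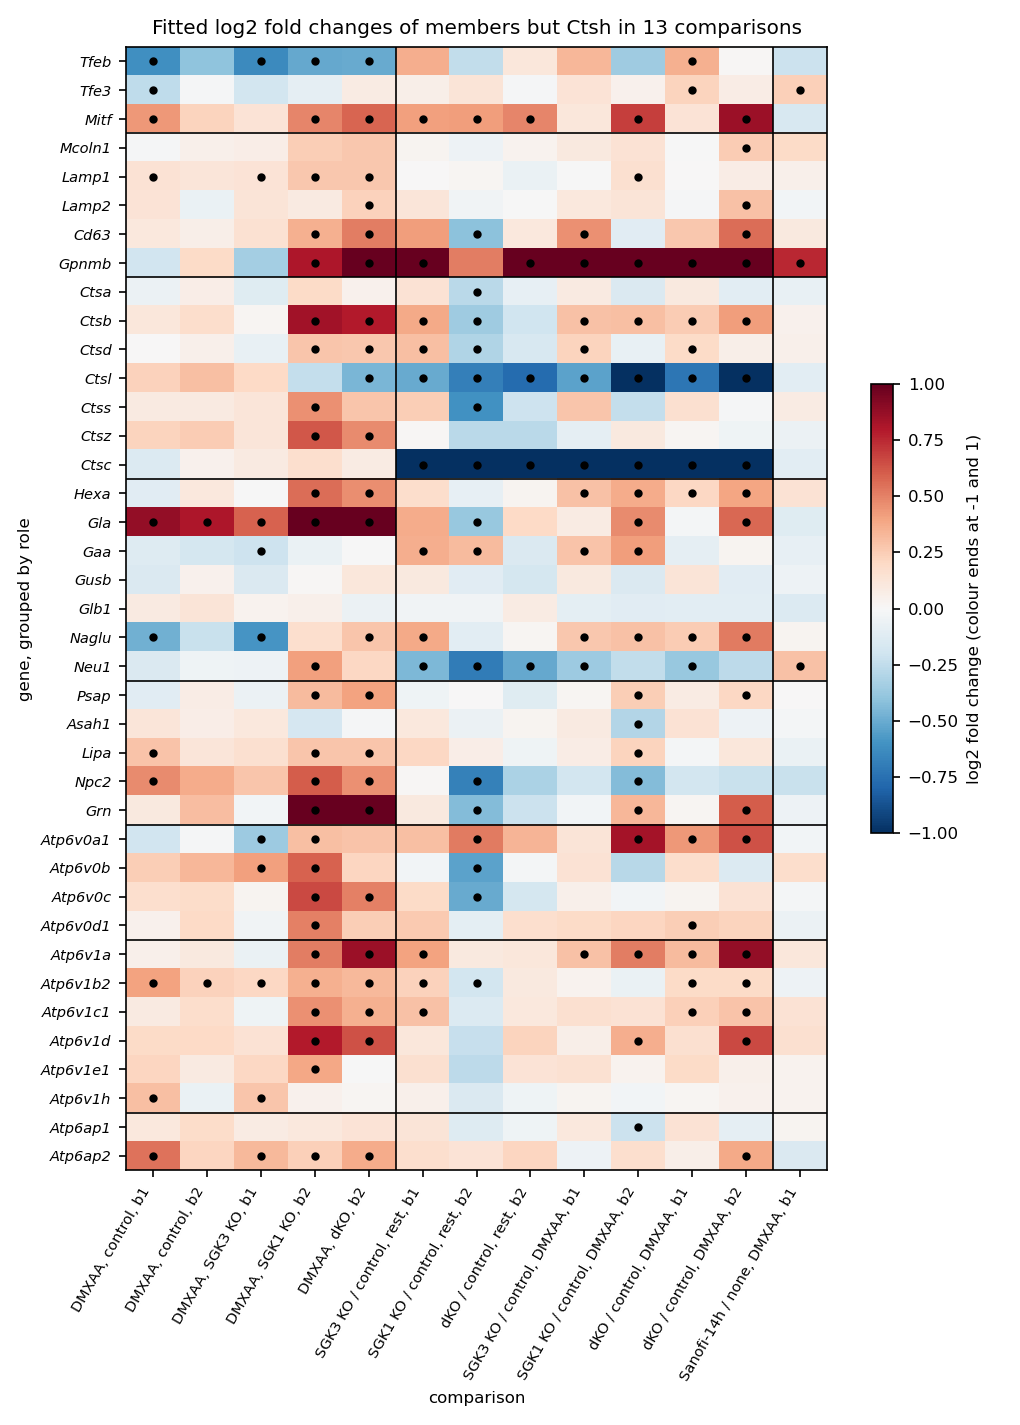
Fitted log2 fold changes (colour, ending at -1 and 1) of 39 members (rows, grouped by role, without Ctsh) in 13 comparisons (columns), a dot marking adjusted p below 0.05. The columns of the DMXAA response in the SGK1 and double knockouts hold 26 and 23 dots, against 11 and 2 in control cells of b1 and b2, and Ctsc is below -1 in all 7 knockout columns.

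The difference between the knockout and control responses was tested directly within b2. The SGK1 knockout responded more than control cells in 6 of 40 members and less in 0 (15%, against 2.83% of all genes, 1.74% higher and 1.09% lower). These were Gla (difference of log2 responses 0.85 ± 0.16 SE, adjusted p = 0.000917), Grn (0.76 ± 0.16 SE, adjusted p = 0.00296), Ctsb (0.66 ± 0.14 SE, adjusted p = 0.0036), Atp6v1d (0.59 ± 0.14), Hexa (0.45 ± 0.10) and Atp6v1a (0.42 ± 0.08), the last 3 with adjusted p = 0.0116, 0.00957 and 0.00122. The double knockout responded more in 5 members and less in 1 (15%, against 2.97% of all genes, 1.66% higher and 1.31% lower). Gpnmb (1.55 ± 0.32 SE, adjusted p = 0.00245), Grn (0.82 ± 0.16 SE, adjusted p = 0.00146), Atp6v1a (0.76 ± 0.08 SE, adjusted p = 2.82e-08), Ctsb (0.61 ± 0.14, adjusted p = 0.00805) and Naglu (0.50 ± 0.12, adjusted p = 0.0117) responded more, and Ctsl less (-0.75 ± 0.17 SE, adjusted p = 0.00716). With the b3 reruns counted as b2 libraries, 0 members passed in either test by edgeR. For the SGK1 knockout the count was 12 without its rest replicate 1, and 1 in a fit of the compared groups alone (against 0.502% of all genes). Without the length-trend libraries it was 3. At rest, Gla, Grn and Ctsb were themselves lower in the SGK1 knockout than in control cells, by values given below.

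The comparisons of knockouts with control cells of the same batch show how the lines differ, and within a batch they share control libraries. Gpnmb (GRCm39 chromosome 6, 49013480 to 49047863) encodes a transmembrane glycoprotein of lysosomes and melanosomes and is known to be induced by MITF and by lysosomal stress. It stood at 1.44, 2.56 and 1.77 CPM in b1 control cells at rest and at 37.0, 38.1 and 35.5 in the SGK3 knockout (4.26 ± 0.26 SE, adjusted p = 2.28e-16), 19.2-fold higher. With DMXAA it stood at 2.13, 1.30, 1.62, 1.49 and 1.83 CPM in the controls, 29.1, 29.4, 28.5, 30.4 and 28.4 in the SGK3 knockout (4.12 ± 0.20 SE, adjusted p = 6.69e-20) and 13.7, 16.3, 16.4, 12.9 and 12.0 in the double knockout (3.09 ± 0.20 SE, adjusted p = 1.17e-16). The knockout libraries lay far above every control library of b1, with no overlap. In b2 it stood at 3.04, 2.05 and 1.93 CPM in control cells at rest, 2.91, 3.06 and 4.02 in the SGK1 knockout (0.51 ± 0.24 SE, adjusted p = 0.115) and 8.04, 8.51 and 8.03 in the double knockout (1.81 ± 0.24 SE, adjusted p = 3.75e-07). With DMXAA the b2 values were 2.52, 3.08, 2.54 and 2.53 CPM in control cells, 6.16, 8.63, 5.81 and 2.71 in the SGK1 knockout (1.13 ± 0.21 SE, adjusted p = 6.62e-05) and 31.6, 27.1 and 23.7 in the double knockout (3.36 ± 0.23 SE, adjusted p = 7.78e-16). The SGK1 knockout overlapped control cells at rest and with DMXAA, while the double knockout stood apart from them in every library. Gpnmb was thus higher in 6 of the 7 knockout comparisons.

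Ctsc (GRCm39 chromosome 7, 87927293 to 87960096) encodes cathepsin C, the dipeptidyl peptidase that activates granule serine proteases. In b1 it stood at 249.9, 252 and 243 CPM in control cells at rest and 64.2, 57.9 and 58.3 in the SGK3 knockout (-2.05 ± 0.09 SE, adjusted p = 9.3e-22). With DMXAA the values were 238, 229, 230.3, 213 and 216 CPM in the controls, 63.2, 63.2, 66.1, 69.6 and 57.4 in the SGK3 knockout (-1.82 ± 0.07 SE, adjusted p = 1.96e-24) and 75.9, 76.9, 75.7, 73.8 and 60.0 in the double knockout (-1.64 ± 0.07 SE, adjusted p = 1.01e-22). In b2 at rest they were 243, 252 and 236 CPM in control cells, 80.1, 73.8 and 72.1 in the SGK1 knockout (-1.69 ± 0.09 SE, adjusted p = 1.08e-18) and 64.0, 51.8 and 66.8 in the double knockout (-2.00 ± 0.09 SE, adjusted p = 1.33e-21). The highest knockout library of b1 and b2 stood at 93.6 CPM and the lowest library of control cells at 206 CPM. With DMXAA in b2 they were 246, 271, 241 and 246 CPM in control cells, 93.6, 72.9, 88.6 and 83.9 in the SGK1 knockout (-1.57 ± 0.07 SE, adjusted p = 2.86e-20) and 68.7, 60.1 and 64.4 in the double knockout (-1.96 ± 0.08 SE, adjusted p = 3.65e-22). Ctsc was lower by 2.96- to 4.13-fold in all 7 knockout comparisons, and the 7 calls held in every alternative and with any 1 library left out. It did not pass in any of the 5 DMXAA comparisons.

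Ctsl (GRCm39 chromosome 13, 64507151 to 64518704), which encodes the cysteine protease cathepsin L, was also lower in all 7 knockout comparisons. At rest in b1 its CPM were 377, 350.1 and 346 for control cells and 252, 256 and 248 for the SGK3 knockout (-0.50 ± 0.13 SE, adjusted p = 0.00832). With DMXAA it stood at 415, 394, 443, 418 and 429 CPM in the controls, 298, 298, 285, 313 and 253 in the SGK3 knockout (-0.54 ± 0.10 SE, adjusted p = 7.57e-05) and 249, 268, 263, 249 and 246 in the double knockout (-0.72 ± 0.10 SE, adjusted p = 2.71e-07). The groups did not overlap in b1. In b2 at rest it stood at 388, 433 and 339.5 CPM in control cells, 273, 235 and 215 in the SGK1 knockout (-0.68 ± 0.13 SE, adjusted p = 0.000162) and 246, 176 and 260.1 in the double knockout (-0.77 ± 0.13 SE, adjusted p = 2.62e-05). With DMXAA it stood at 448, 521, 435 and 498 CPM in control cells, 244, 186, 219.6 and 168 in the SGK1 knockout (-1.22 ± 0.11 SE, adjusted p = 1.32e-11) and 191, 188 and 119 in the double knockout (-1.52 ± 0.12 SE, adjusted p = 3.76e-13). There was no overlap in b2 either. The call of the SGK3 knockout at rest ended without control rest replicate 1, and that of the SGK1 knockout at rest ended without the length-trend libraries.

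Neu1 (GRCm39 chromosome 17, 35150229 to 35154929) encodes the lysosomal sialidase, which works in a complex with the protective protein encoded by Ctsa. It stood at 95.5, 68.0 and 79.8 CPM in b1 control cells at rest and 55.0, 60.1 and 62.6 in the SGK3 knockout (-0.45 ± 0.12 SE, adjusted p = 0.0113). With DMXAA in b1 it stood at 72.2, 72.8, 75.3, 66.8 and 80.1 CPM in the controls, 56.1, 62.0, 51.2, 64.5 and 52.0 in the SGK3 knockout (-0.36 ± 0.09 SE, adjusted p = 0.00418) and 53.2, 58.4, 56.5, 60.5 and 53.5 in the double knockout (-0.38 ± 0.09 SE, adjusted p = 0.00202). All these knockout libraries lay below the controls. In b2 at rest it stood at 51.0, 60.1 and 47.1 CPM in control cells, 35.0, 33.6 and 28.9 in the SGK1 knockout (-0.70 ± 0.12 SE, adjusted p = 3.8e-05) and 40.6, 31.4 and 39.0 in the double knockout (-0.51 ± 0.12 SE, adjusted p = 0.00304), again without overlap. With DMXAA in b2 the values were 46.2, 56.0, 46.9 and 55.7 CPM in control cells, 47.3, 37.9, 43.1 and 44.4 in the SGK1 knockout and 48.9, 45.5 and 34.0 in the double knockout. The libraries of both knockouts overlapped those of control cells here, with log2 differences of -0.25 ± 0.10 and -0.26 ± 0.11 that did not pass. The call of the SGK3 knockout at rest ended in the fit of its groups alone and without control rest replicate 1 or SGK3 knockout rest replicate 1. That of the double knockout at rest ended in the fit of its groups alone and without control rest replicate 2 or double knockout rest replicate 2.

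**Figure D3:**
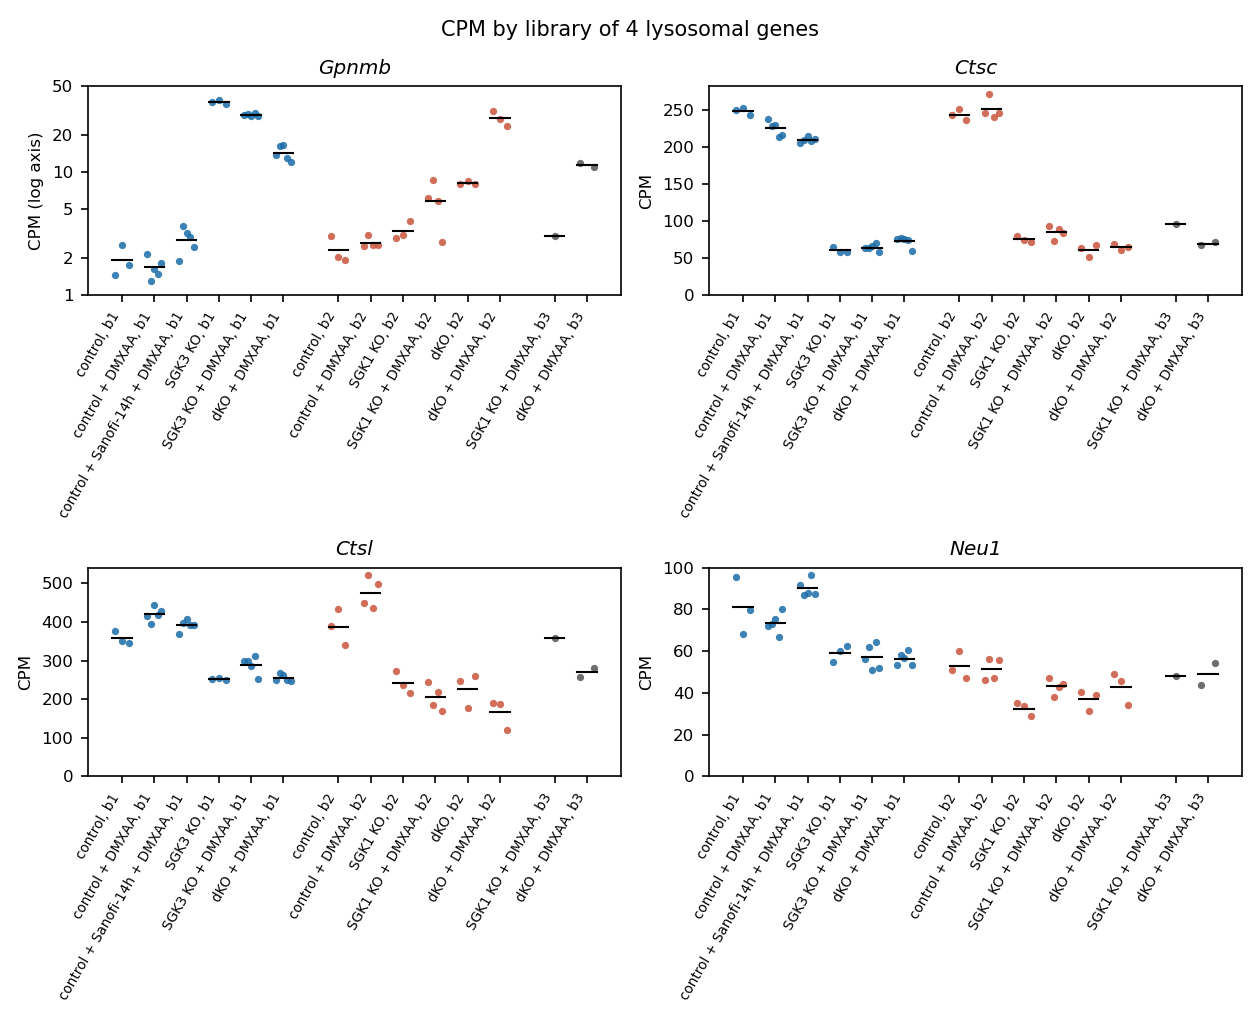
CPM of Gpnmb (log axis), Ctsc, Ctsl and Neu1 (axes from 0) in each library (points) with group means (lines), for b1 (blue), b2 (red) and b3 (grey). Ctsc is at most 93.6 CPM in the knockouts of b1 and b2 and at least 206 CPM in control cells, and Gpnmb runs from 28.4 to 38.1 CPM in the SGK3 knockout against at most 3.61 CPM in b1 control cells, those with Sanofi-14h included.

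At rest the lines differed from control cells in different numbers of members. In the SGK3 knockout 9 members were higher and 3 lower (30%, against 4.82% of all genes, 2.79% higher and 2.03% lower; median of 39 members 0.16). Beside those above, the higher members were Atp6v1a (0.41 ± 0.06 SE, adjusted p = 3.73e-06), Ctsb (0.38 ± 0.10), Naglu (0.38 ± 0.09), Gaa, the acid alpha-glucosidase (0.36 ± 0.08), Ctsd (0.30 ± 0.08), Atp6v1c1 (0.29 ± 0.07) and Atp6v1b2 (0.23 ± 0.07). The count of 12 was 6 without control rest replicate 1 or SGK3 knockout rest replicate 1, and 7 without control rest replicate 3. It was 24 in the fit of these groups alone, where 16.2% of all genes passed. In the double knockout 2 members were higher and 3 lower (12.5%, against 6.26% of all genes, 2.75% higher and 3.51% lower; median -0.01): Gpnmb and Mitf, and Ctsc, Ctsl and Neu1. In the fit of these groups alone 3 passed, against 3.75% of all genes.

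In the SGK1 knockout at rest 3 members were higher and 14 lower (42.5%, against 25.8% of all genes, 11.3% higher and 14.5% lower; median -0.14). The cathepsins and protective protein had 6 of 8 members lower, among them Ctss (-0.61 ± 0.14), Ctsb (-0.36 ± 0.10) and Ctsd (-0.30 ± 0.08). Npc2 (-0.68 ± 0.16), Grn (-0.44 ± 0.12), Gla (-0.38 ± 0.12), Atp6v0b (-0.54 ± 0.15) and Atp6v0c (-0.50 ± 0.14) were lower too, and Atp6v0a1 (0.52 ± 0.11), Mitf and Gaa (0.31 ± 0.08) were higher. Only Ctsc and Neu1 held in every alternative and with any 1 library left out. Without the length-trend libraries, which left 1 SGK1 knockout library at rest, those 2 passed. The count of 17 was 11 without control rest replicate 2 and 7 without SGK1 knockout rest replicate 3. It was 3 in the fit of these groups alone, where 1.74% of all genes passed. On TPM, limma called 9 members higher and 7 lower, against 29.6% to 29.9% of all genes.

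With DMXAA the SGK3 knockout had 8 members higher and 3 lower than control cells (27.5%, against 10.8% of all genes, 6.12% higher and 4.7% lower; median of 39 members 0.10). The higher members besides Gpnmb were Cd63, a tetraspanin of late endosomes (0.46 ± 0.10 SE, adjusted p = 0.00104), Atp6v1a, Ctsb, Hexa, Gaa, Naglu and Ctsd, at 0.23 to 0.29. Calls of Ctsl, Atp6v1a, Naglu, Hexa, Cd63, Neu1, Gpnmb, Ctsc and Gaa held in every alternative and with any 1 library left out. A fit of these groups alone called 17 members, against 23.4% of all genes.

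The SGK1 knockout with DMXAA had 14 members higher and 5 lower (47.5%, against 20.8% of all genes, 9.43% higher and 11.4% lower; median 0.10). Atp6v0a1 stood at 25.1, 25.8, 26.0 and 24.4 CPM in b2 control cells with DMXAA and at 43.6, 49.6, 40.1 and 47.1 in the SGK1 knockout, without overlap (0.83 ± 0.09 SE, adjusted p = 4.09e-09). At rest it stood at 21.1, 24.7 and 30.8 CPM in control cells and at 32.3, 40.1 and 37.2 in the knockout. Atp6v1a (0.51 ± 0.05 SE, adjusted p = 2.08e-10), Gla (0.47 ± 0.10), Gaa (0.42 ± 0.07), Hexa (0.37 ± 0.07) and Atp6v1d (0.36 ± 0.09) were higher as well. Npc2 (-0.44 ± 0.14), Asah1, the acid ceramidase (-0.29 ± 0.07), and Atp6ap1 (-0.22 ± 0.07) were lower besides Ctsc and Ctsl. Ctsl, Mitf, Atp6v0a1, Hexa, Gpnmb, Ctsc and Gaa held in every alternative and with any 1 library left out. The count of 19 was 12 in the fit of these groups alone (against 11.2% of all genes) and 9 with the b3 rerun counted with b2 (against 9.98%). On TPM limma called 19 higher and 3 lower, against 17% to 17.4% of all genes.

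The double knockout with DMXAA was sequenced in both batches. In b1, 12 members were higher and 3 lower (37.5%, against 13.4% of all genes, 7.15% higher and 6.21% lower; median 0.13), and in b2, 17 were higher and 2 lower (47.5%, against 21.6% of all genes, 10% higher and 11.6% lower; median 0.12). Atp6v1a (GRCm39 chromosome 16, 43905765 to 43960068) was at 406, 416, 425, 402 and 384 CPM in b1 control cells and 510.2, 527, 529.8, 491 and 472 in the double knockout, and in b2 at 289, 282, 301 and 265.4 in control cells and at 506, 527 and 535 in the double knockout. The double knockout lay above the controls in every library of both batches (0.32 ± 0.05 SE, adjusted p = 1.29e-06 in b1, 0.88 ± 0.06 SE, adjusted p = 1.33e-16 in b2). Atp6v0a1 was higher by 0.43 ± 0.08 and 0.64 ± 0.10, Naglu by 0.25 ± 0.07 and 0.52 ± 0.08, and Hexa by 0.21 ± 0.06 and 0.39 ± 0.07. In b2 alone the calls included Atp6v1d (0.66 ± 0.10), Grn (0.60 ± 0.11), Gla (0.58 ± 0.11), Cd63 (0.56 ± 0.12), Atp6ap2 (0.38 ± 0.07) and Lamp2, a membrane protein of chaperone-mediated autophagy (0.30 ± 0.07). The count of 19 in b2 was 10 with the b3 reruns counted as b2 libraries, where 14.2% of all genes passed.

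The size of the double knockout's difference was itself compared between batches, and 9 of 40 members differed (22.5%, against 7.27% of all genes, 4.38% higher and 2.89% lower). Atp6v1a (-0.56 ± 0.07 SE, adjusted p = 6.82e-07, b1 minus b2), Mitf (-0.72 ± 0.15), Gla (-0.60 ± 0.14), Grn (-0.58 ± 0.14), Atp6v1d (-0.50 ± 0.13), Atp6ap2 (-0.32 ± 0.09) and Lamp2 (-0.31 ± 0.10) had the larger log2 difference in b2. Ctsl (0.80 ± 0.15) and Ctsc (0.33 ± 0.10) were lowered more in b2. The adjusted p-values ran from 6.82e-07 to 0.0413. With the b3 reruns counted as b2 libraries 0 of the 9 differences passed by edgeR.

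**Figure D4:**
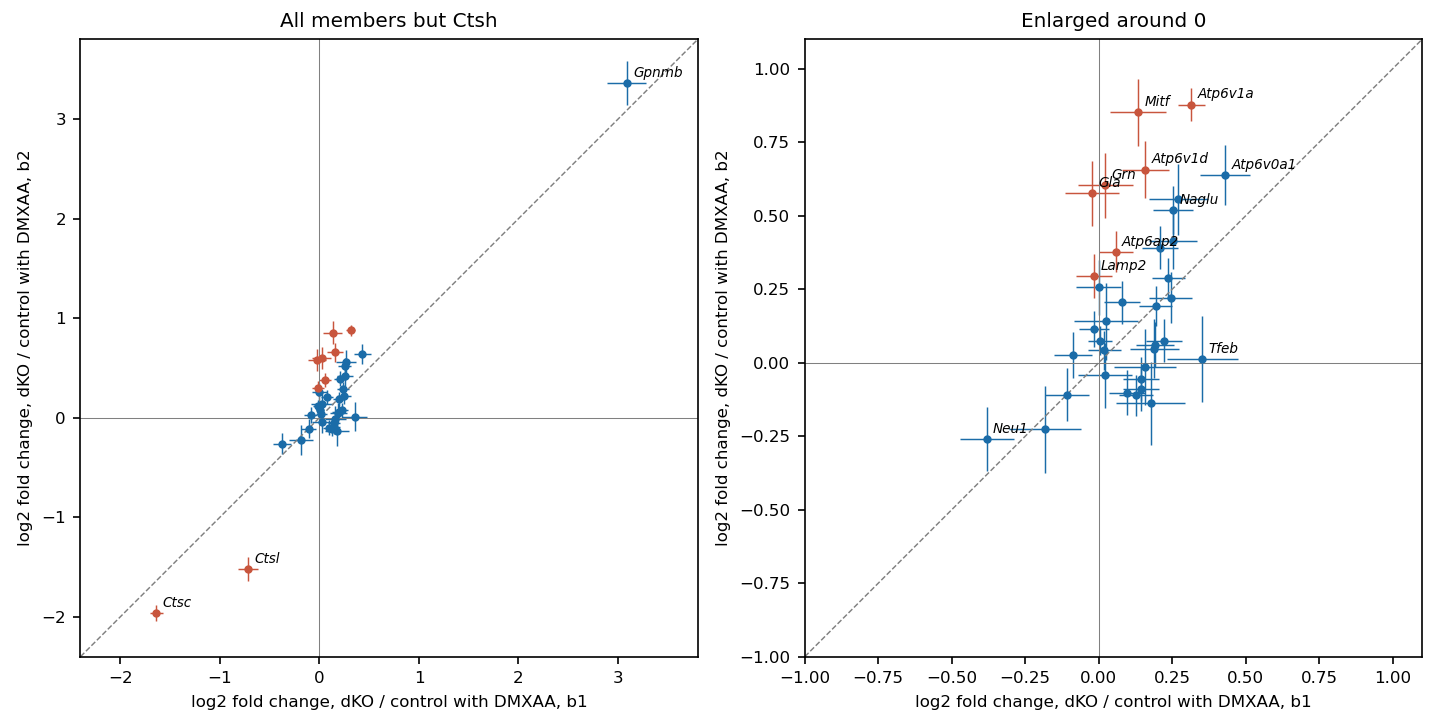
Log2 fold change of the double knockout against control cells with DMXAA in b1 (horizontal) and b2 (vertical) for 39 members, with standard errors as bars. The dashed line marks equal values, and the right panel enlarges the centre. Red marks the 9 members whose difference between batches passed the test, 7 of them above the dashed line (such as Atp6v1a at 0.32 and 0.88) and Ctsl and Ctsc below it.

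The b3 reruns of SGK1 knockout and double knockout cells with DMXAA give a further reading of the same groups. Of the 17 members higher in the double knockout of b2, 5 (Gpnmb, Atp6v1d, Atp6v0a1, Cd63 and Atp6ap2) lay above every b2 control library with DMXAA in both b3 double knockout libraries. Ctsb and Psap, higher in the double knockout of b2, lay below every such control library in both. Both members lower in b2, Ctsc and Ctsl, lay below every such control library. Gpnmb was at 11.9 and 10.9 CPM in b3, Ctsc at 67.6 and 71.2 and Ctsl at 258 and 282. Grn was at 379 and 349 CPM, Gla at 37.8 and 40.1, Atp6v1a at 272 and 240.1 and Ctsb at 1283 and 1335, none of them above the highest b2 control library with DMXAA. Mitf, at 61.1 and 50.2 CPM, lay within the range of those control libraries (49.2 to 64.7 CPM). The b3 library of the SGK1 knockout had Grn at 358 CPM, Gla at 30.8, Atp6v1a at 227, Mitf at 47.0, Ctsl at 359, Ctsc at 96.1 and Gpnmb at 3.03. All 40 members took 0.764% to 0.821% of TPM in the b3 double knockout libraries and 0.936% to 1.08% in those of b2. Without a b3 control group the batch and the line cannot be told apart for these values.

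**Figure D5:**
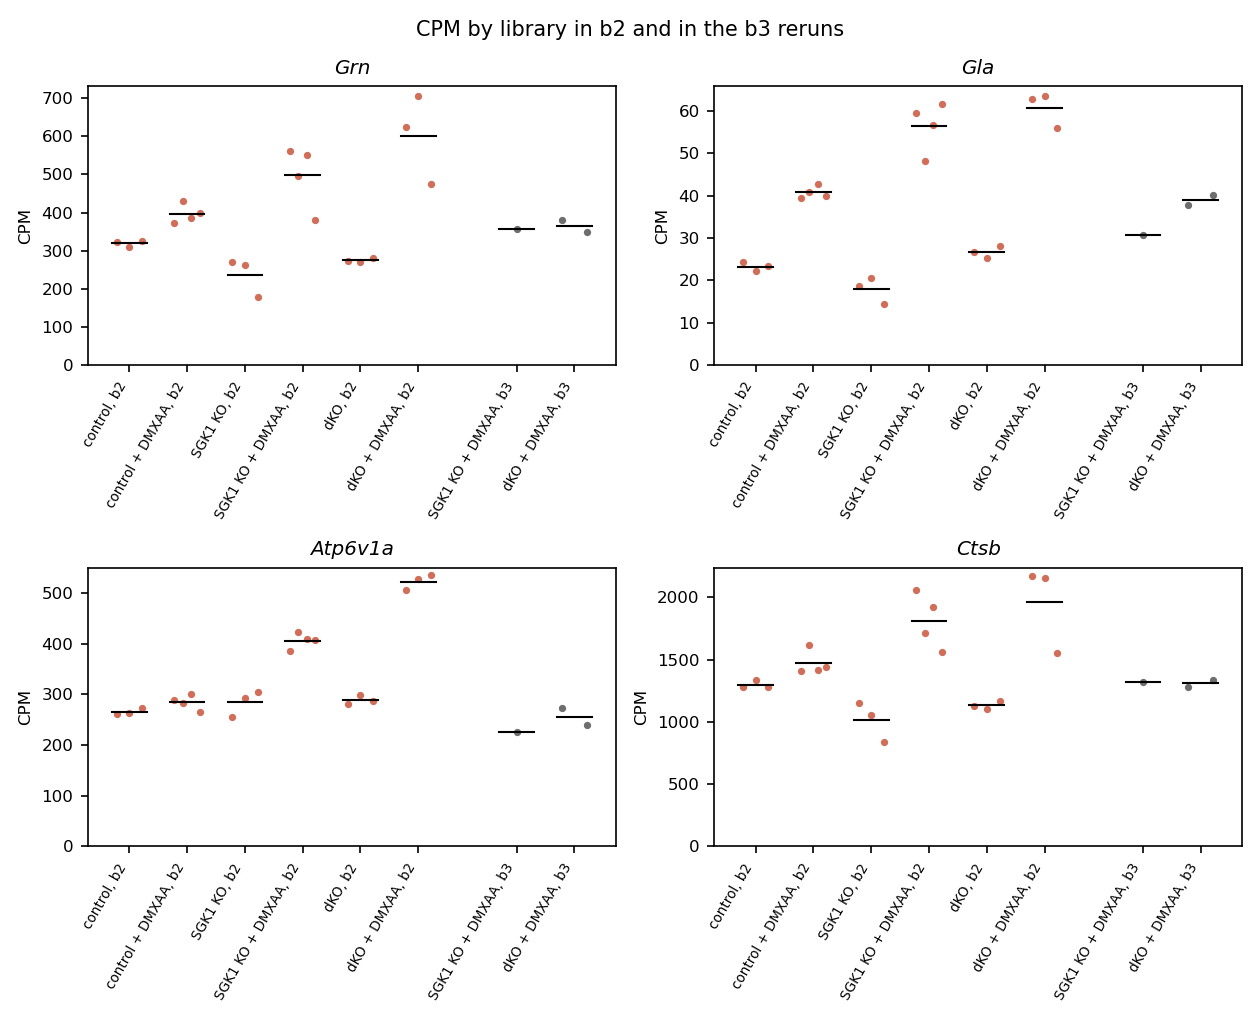
CPM (vertical axes, from 0) of Grn, Gla, Atp6v1a and Ctsb in each library of b2 (red) and of the b3 reruns (grey), with group means as lines. The stimulated SGK1 and double knockouts of b2 stand above the resting ones for each gene, while the b3 reruns of the same groups lie at or below the highest stimulated b2 control library.

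Sanofi-14h before DMXAA was compared with DMXAA alone in b1 control cells, with 5 libraries each. It raised 3 members and lowered 0 (7.5%, against 8.51% of all genes, 3.7% higher and 4.81% lower; median of 39 members -0.02), a share near the background. Neu1 stood at 91.8, 86.9, 88.1, 96.7 and 87.2 CPM with the inhibitor against 72.2, 72.8, 75.3, 66.8 and 80.1 without it, the libraries lying apart (0.30 ± 0.09 SE, adjusted p = 0.03). This direction is opposite to that of Neu1 in the knockouts, and the call ended when any of 5 of the 10 libraries was left out. Gpnmb stood at 1.89, 3.61, 3.16, 2.94 and 2.47 CPM with the inhibitor (0.75 ± 0.19 SE, adjusted p = 0.00697) and Tfe3 at 81.2, 84.6, 89.6, 78.2 and 85.7 (0.24 ± 0.06 SE, adjusted p = 0.00722), both with overlap, and both calls ended with limma on TPM. Ctsc (206, 209, 215, 208 and 211 CPM, log2 difference -0.10 ± 0.06) and Ctsl (369, 396, 408, 391 and 392 CPM, -0.10 ± 0.10) did not pass. In a fit of these groups alone 7 members passed, against 19.1% of all genes in that fit. By limma on TPM 1 passed, against 6.44% to 7.11% of all genes. With the inhibitor, Tfeb stood at 13.4, 15.1, 13.8, 14.7 and 12.2 CPM, Mitf at 60.6, 56.6, 65.5, 56.9 and 57.9 and Mcoln1 at 45.8, 43.2, 47.2, 48.6 and 42.5, and none of the 3 passed.

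Genes of the pathway outside the 40 members were counted in the same way. Of 33 other lysosomal genes tested, 11 rose and 1 fell with DMXAA in the double knockout (36.4%, against 14% of all genes) and 9 rose and 6 fell in the SGK1 knockout (45.5%, against 24.1%). In control cells 3 rose and 5 fell in b1 (24.2%, near the 21.1% of all genes) and 1 rose and 0 fell in b2 (3.03%, against 7.8%). Against control cells with DMXAA, 9 were higher and 1 lower in the SGK3 knockout (30.3%, against 10.8% of all genes), 10 and 5 in the SGK1 knockout (45.5%, against 20.8%), and 8 and 3 in b1 (33.3%, against 13.4%) and 10 and 6 in b2 (48.5%, against 21.6%) in the double knockout. At rest the counts were 5 and 0 in the SGK3 knockout (15.2%, against 4.82%), 7 and 6 in the SGK1 knockout (39.4%, against 25.8%) and 3 and 3 in the double knockout (18.2%, against 6.26%). Sgsh, a sulfatase of heparan sulfate breakdown, was higher in all 7 knockout comparisons, by 0.55 to 1.11, as in the double knockout of b2 with DMXAA (1.11 ± 0.10 SE, adjusted p = 2.24e-12). Of 8 other V-ATPase subunits tested, 4 rose and 1 fell with DMXAA in the SGK1 knockout (62.5%, against 24.1% of all genes), 2 rose and 1 fell in the double knockout (37.5%, against 14%) and 1 rose in b2 control cells (12.5%, against 7.8%). Of the 14 autophagy genes of the CLEAR network 4 rose and 2 fell in b1 control cells with DMXAA (42.9%, against 21.1% of all genes) and 4 rose and 0 fell in b2 (28.6%, against 7.8%). Among them Sqstm1, the autophagy receptor p62, rose by 0.62 ± 0.09 in b1 and 0.50 ± 0.09 in b2 control cells, by 0.26 ± 0.08 in the SGK3, 0.95 ± 0.09 in the SGK1 and 0.75 ± 0.09 in the double knockout.

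Markers of osteoclasts, cells that RAW264.7 can form and in which MITF and TFE3 act, differed between lines in part as Gpnmb did. Acp5, the tartrate-resistant acid phosphatase, stood at 0.250, 0.212, 0.128 and 0.0937 CPM in b2 control cells with DMXAA and 9.05, 9.08 and 4.96 in the double knockout (5.49 ± 0.49 SE, adjusted p = 5.19e-12). In b1 it stood at 0.856, 0.927, 0.454, 1.20 and 0.929 CPM in control cells and at 4.93, 4.97, 4.92, 3.45 and 5.41 in the double knockout (2.43 ± 0.37 SE, adjusted p = 1.9e-06). Atp6v0d2, the V0 subunit of osteoclasts, stood at 0.360, 0.410, 0.354 and 0.134 CPM in b2 control cells with DMXAA and 12.9, 10.6 and 9.38 in the double knockout (5.12 ± 0.52 SE, adjusted p = 2.2e-10). Both genes were low in control cells, and every double knockout library of b1 and b2 with DMXAA lay above them. In the b3 reruns of the double knockout Acp5 stood at 1.52 and 1.49 CPM and Atp6v0d2 at 1.68 and 1.82. These values lay above the b2 control libraries with DMXAA but well below the b2 double knockout. In the SGK3 knockout at rest, where the log2 difference of Gpnmb was 4.26, Acp5 stood at 0.891, 1.25 and 1.41 CPM against 0.741, 1.17 and 0.869 in control cells and did not pass (0.35 ± 0.46 SE, adjusted p = 1). Atp6v0d2 stood at 7.57, 5.97 and 5.59 CPM in the SGK3 knockout at rest against 1.06, 2.39 and 1.26 in b1 control cells. At rest the 9 markers summed to 88.7 to 112 CPM in b1 control cells and 137 to 151 in the SGK3 knockout, with 3 of 8 tested higher and 0 lower. In b2 at rest the sums were 133 to 153 CPM in control cells, 219 to 256 in the SGK1 knockout, with 1 higher, and 242 to 292 in the double knockout, with 4 higher and 1 lower. With DMXAA they were 83.4 to 99.2 CPM in b2 control cells, 114 to 151 in the SGK1 knockout, with 3 higher, and 166 to 212 in the double knockout, with 4 higher. The marker sum of the b2 double knockout was thus smaller with DMXAA than at rest, while Gpnmb rose there. Of the 8 markers tested, however, 3 rose and 1 fell with DMXAA in that line (50%, against 14% of all genes). Their median log2 fold change was 0.88. In b1 with DMXAA the sums were 58.0 to 62.6 CPM in control cells, 75.3 to 88.9 in the SGK3 knockout, with 3 higher, and 90.7 to 105 in the double knockout, with 4 higher. Whether any cells were osteoclasts, and what part they would have in the results, was not tested.

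Counted over the 13 comparisons of groups, 37 of 40 members (92.5%) were called at least once, against 59.8% of all genes. Many members are abundant: the lowest library held 70063 counts of Ctsb and 57240 of Lamp1, though 91 of Gpnmb. A gene with more counts can pass with a smaller change. The gap to all genes, not matched for level, thus cannot be read as particular to lysosomal genes. The libraries compared did not overlap in 135 of the 173 calls of members (78%) and in 78.6% of the calls of all genes. The share of member calls without overlap ran from 33.3% with the inhibitor (1 of 3, against 80.6% of all called genes) and 46.7% in the double knockout of b1 with DMXAA (7 of 15, against 85.6%) to 100% in 4 comparisons, and it was 61.5% in the response of the SGK1 knockout (16 of 26, against 55.2%). Gpnmb and Atp6v1b2 were called in 9 comparisons each. Gla rose in all 5 DMXAA comparisons, and so did Atp6v1b2. Ctsc and Ctsl were lower in all 7 knockout comparisons. Ctsh, Glb1 (beta-galactosidase) and Gusb (beta-glucuronidase) were called in none by edgeR.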

How the data were processed

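Reads of polyA-selected RNA were aligned with STAR 2.7.9a and quantified with StringTie 2.2.0 on GRCm39, per the submitters' processing notes. The deposited estimated counts per gene were rounded, and the deposited TPM values were used as the authors scaled them. Of 50 libraries, 46 (b1 and b2) entered 1 edgeR 4.0.16 fit (R 4.3.3) with 12 groups: TMM, edgeR's filter on low counts, robust quasi-likelihood test, Benjamini-Hochberg adjustment over 18315 genes at 0.05. CPM are counts over TMM-scaled library sizes. Log2 fold changes carry their SE. Alternatives used DESeq2 1.42.0, limma 3.58.1 on log2(TPM + 1) or log2(TPM + 0.1), RLE scaling, no filter, a replicate block, a removed length trend, fewer libraries, b3 counted with b2, and the compared groups alone. The members and lists were chosen with earlier results of these data known. Per-library values are given for the factors, Mcoln1 and, in each comparison, the 3 called members of largest change without overlap. Other genes were picked after their values were seen, among them Fnip2, Tfec, Sgsh, Sqstm1, Acp5 and Atp6v0d2. The edgeR script was tested on simulated counts. Among 71 pairs of libraries of a group 0 were identical.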

Additional observations from a re-analysis of the deposited data

Results flagged for a closer look

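In 28 of 234 sets of member values within a group (21 members) the highest or lowest library stood apart from the rest by Dixon's criterion, which chance meets in about 1 in 20 sets. Of these, 9 came from the double knockout with DMXAA of b1, replicate 5. It was the lowest of its group for Ctsb (1874 CPM), Ctsz (663 CPM), Ctsc (60.0 CPM), Hexa (324 CPM), Gaa (56.1 CPM), Lipa (438 CPM), Grn (532 CPM), Atp6v0c (239 CPM) and Atp6ap1 (170.1 CPM). Without that library 14 members passed in the double knockout of b1 with DMXAA, against 15 with it.

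In control cells with DMXAA of b1, Mitf (73.4 CPM) and Cd63 (225 CPM) in replicate 2, Gla (77.1 CPM) in replicate 3, and Ctsd (696 CPM) and Psap (642 CPM) in replicate 4 stood apart. With the inhibitor, Lamp1 was at 1120.3 CPM in replicate 3 and Atp6v1c1 at 150.3 CPM in replicate 2. In the SGK3 knockout with DMXAA, Lamp1 (920.0 CPM), Gla (55.5 CPM), Lipa (456 CPM) and Atp6ap2 (176 CPM) in replicate 5 and Ctss (717 CPM) in replicate 2 stood apart. In b2 control cells with DMXAA, replicate 2 did so for Gpnmb (3.08 CPM), Ctsb (1615 CPM), Ctsd (969.7 CPM), Asah1 (158 CPM) and Atp6ap2 (170.1 CPM). In the SGK1 knockout with DMXAA of b2, replicate 4 did so for Lamp2 (335 CPM) and Asah1 (96.8 CPM).

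Effects that differed between groups by a test of the difference itself (edgeR) were the 23 given in the report. For the response of the SGK1 knockout minus that of control cells they were 0.85 (Gla), 0.76 (Grn), 0.66 (Ctsb), 0.59 (Atp6v1d), 0.45 (Hexa) and 0.42 (Atp6v1a) log2 units. For the double knockout minus control cells they were 1.55 (Gpnmb), 0.82 (Grn), 0.76 (Atp6v1a), -0.75 (Ctsl), 0.61 (Ctsb) and 0.50 (Naglu). For the control response in b1 minus b2 they were 0.37 (Atp6v1h) and 0.33 (Atp6ap2). For the double knockout against control cells in b1 minus b2 they were 0.80 (Ctsl), -0.72 (Mitf), -0.60 (Gla), -0.58 (Grn), -0.56 (Atp6v1a), -0.50 (Atp6v1d), 0.33 (Ctsc), -0.32 (Atp6ap2) and -0.31 (Lamp2). Of the 17 members higher in the double knockout of b2 with DMXAA, 5 also lay above every b2 control library with DMXAA in both b3 reruns of that line, which enter only the fits with b3 counted as b2: Gpnmb (11.9 and 10.9 CPM), Atp6v1d (30.4 and 32.4 CPM), Atp6v0a1 (26.9 and 29.2 CPM), Cd63 (144.9 and 179.8 CPM) and Atp6ap2 (194.5 and 185.8 CPM). Atp6v0d1 (65.2 and 69.9 CPM) and Atp6v1e1 (72.8 and 86.5 CPM), which were not called in b2, lay above them too.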

How the results depend on the processing

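Across the 13 comparisons of groups 173 calls of a member were made, and 72 held in every alternative and with any 1 library left out. Of the 23 calls among the 5 differences of responses 0 did. The only reversal was Atp6v1b2 in the SGK1 knockout at rest, at 0.0214 and 0.0216 log2 units with limma on log2(TPM + 1) and log2(TPM + 0.1), neither passing. For the fits of the compared groups alone the counts of called members are given with the share of all genes called. They were 18 (35.9%) and 20 (35.3%) for the DMXAA response of b1 control cells and the SGK3 knockout. For that of the SGK1 and double knockouts they were 9 (5.2%) and 8 (3.34%). At rest they were 24 (16.2%), 3 (1.74%) and 3 (3.75%) for the SGK3, SGK1 and double knockouts. With DMXAA they were 17 (23.4%) and 12 (11.2%) for the SGK3 and SGK1 knockouts. They were 7 (19.1%) for the inhibitor and 1 (0.502%) for the SGK1 knockout's response minus the control response. Without the length-trend libraries they were 7 for the b2 control response, 11 for the SGK1 knockout's response, 2 for the SGK1 knockout at rest and 3 for its response minus the control response. With the length trend removed they were 9 for the b2 control response (10.7% of all genes), 8 for the double knockout at rest (8.34%) and 5 for the inhibitor (12.5%). The b2 control response had 4 calls with DESeq2 and 4 with limma on log2(TPM + 1), the inhibitor 1 and 1 with limma at either pseudocount, and the SGK1 knockout's response minus the control response 3 with limma on log2(TPM + 0.1). The response of control cells in b1 minus b2 had 1 call without a filter, with limma at either pseudocount, and with the replicate block. With b3 counted with b2, the SGK1 and double knockouts with DMXAA had 9 and 10 calls, and each knockout response minus the control response and the double knockout in b1 minus b2 had 0. The cause of these changes was not tested.

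Leaving out 1 library at a time gave 1 to 3 calls for the b2 control response, 6 to 10 for the SGK3 knockout's response, 6 to 10 for the SGK3 knockout at rest, 7 to 22 for the SGK1 knockout at rest, 5 to 12 for the SGK1 knockout's response minus the control response and 0 to 2 for control cells in b1 minus b2. The replicate block in b1 gave 11 calls for the control response (19.2% of all genes). It gave 9 (14.7%) and 12 (4.48%) for the SGK3 knockout's response and its difference at rest. With DMXAA it gave 11 (9.96%) and 14 (12.4%) for the SGK3 and double knockouts and 3 (7.97%) for the inhibitor. The labels do not say whether replicate numbers pair the libraries of b1. The correlation of deviations exceeded 0.1 in 12 of 57 same-numbered pairs (-0.335 to 0.334). Its median was 0.0135 for the same number and -0.00469 for different numbers. Of 26 libraries, 6 correlated best with their own number. Such values cannot show that the libraries were unpaired.

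Depth above 57859509 counts per library left Ctsh, with at most 23 counts, as the member too low to compare. Groups of 3 to 5 libraries, resting double knockout cells in b2 and not b1, and b3 without a labelled control group limit the comparisons. Called directions by mean CPM were the same in 173 of 173 calls, and by mean TPM in 172.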

Other observations

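The b3 control library whose labels disagree on the treatment had Gpnmb at 3.43 CPM, Ctsc at 230.3 CPM, Ctsl at 438 CPM, Grn at 413 CPM, Gla at 39.2 CPM, Atp6v1a at 249 CPM and Ctsb at 1421 CPM. Its Sgk1 stood at 25.8 CPM, against 1.06 to 3.07 in b2 control cells at rest and 25.4 to 39.4 with DMXAA. Its Flcn stood at 88.1 CPM, against 34.0 to 36.4 at rest and 82.3 to 93.9 with DMXAA. The treatment of this library was not tested.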
